A study of Rattus norvegicus with 16 samples.

Results

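Nucleus pulposus (NP) cells at 2 weeks are the cells that carry the authors' NP subcluster in the 8 single-cell RNA libraries of rat lumbar discs taken 2 weeks after surgery. They numbered 35373 of the 79682 cells of the disc (IVD) class, of 93925 cells of all classes at 2 weeks and of 149272 cells in the whole series. The other disc cells were split by the authors into inner annulus fibrosus (IAF, 34885 cells) and outer annulus fibrosus (OAF, 9424 cells). The subcluster entries of the deposited tables are numeric codes, which were paired with these names through cell numbers that the study gives for each named subcluster, and every statement about NP cells rests on that pairing.

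The nucleus pulposus is the gelatinous core of the intervertebral disc, whose high content of the proteoglycan aggrecan draws in water and lets the disc bear load. It descends from the notochord, and its cells are known for aggrecan, collagen II, Cd24 and the cytokeratins Krt8, Krt18 and Krt19, with the notochordal transcription factors Tbxt and Foxa2. The annulus around it grades from a cartilage-like inner part to an outer part of aligned collagen I fibres resembling tendon.

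All libraries came from male Sprague-Dawley rats that were 8 weeks old at surgery, in which the lower lumbar spine was exposed through the retroperitoneum. In each rat the L4–5 and L5–6 discs were each punctured once with a 27G needle, and both were pooled into the lumbar disc puncture (LDP) library. The L2–3 and L3–4 discs of the same rat were not punctured and were pooled into the control (CON) library. These discs lay above the exposed levels, and the study calls them unoperated. There were 4 rats, each with 1 CON and 1 LDP library. Puncture, surgical exposure and spine level were the same split of the discs and cannot be told apart.

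The NP cells numbered 3379, 2370, 4566 and 6920 in CON libraries 1 to 4 and 4725, 5272, 4288 and 3853 in LDP libraries 1 to 4. They made up 34.7%, 69.7%, 37.2% and 58.0% of the disc cells in the CON libraries and 56.3%, 37.0%, 40.1% and 42.8% in the LDP libraries. The NP share therefore overlapped between the groups, with means of 49.9% ± 16.9 in CON and 44.0% ± 8.49 in LDP (SD, n = 4 each, two-sided exact permutation test, p = 0.629), and it was higher in LDP in 2 of 4 rats. The authors clustered CON and LDP cells apart, so NP cells were named separately in each group.

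NP cells were the deepest disc cells of every library. Their median number of unique molecular identifiers (UMIs, counts of single captured mRNA molecules) was 7000 to 8544.5 per cell in CON and 7890 to 10580 in LDP, against 2440 to 3788 in IAF cells of CON and 4100 to 6405 in IAF cells of LDP. An NP cell thus held 1.98 to 3.21 times the UMIs of an IAF cell in CON and 1.65 to 1.92 times in LDP, and these ranges did not overlap. The median number of genes detected per NP cell was 2094 to 2253 in CON and 2273 to 2350 in LDP, with no overlap (two-sided exact permutation test, p = 0.0286, the smallest that 4 against 4 libraries can give; paired sign-flip test over 4 rats, p = 0.125, also the smallest possible). Between 3.26% and 5.87% of NP cells lay at 2900 genes or more, close to the upper limit of 3000 genes set by the authors' cell filter, and no IAF cell did.

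LDP library 4 stood apart from the other LDP libraries. In its NP cells 947 of 7759 genes (12.2%) were 2-fold or more from the median of the other LDP libraries, against 32 to 182 genes in the other 7 libraries, and its ribosomal share was the highest at 16.4% (10.6% to 12.9% in the others). CON library 2 was the next, with 182 genes. Cell barcodes shared by 2 libraries were few among NP cells, 2 to 12 per pair of libraries, at most 0.296% of the smaller set.

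The label was first checked against its markers. Levels are mean CPM, that is UMIs of a gene per 1000000 UMIs of a cell, averaged over the NP cells of a library. The 3′ method counts 1 end per molecule, so CPM values are not divided by gene length, and the capture of different genes is not equal. Aggrecan (Acan) stood at 3512, 3434, 4314 and 3684 CPM in CON libraries 1 to 4 and at 4163, 4062, 4567 and 3192 CPM in LDP libraries 1 to 4. Collagen II (Col2a1) spread more widely, with 17321, 5190, 15024 and 9902 CPM in CON and 11600, 7011, 12014 and 5444 CPM in LDP. Both groups overlapped for both genes. Cd24, a membrane glycoprotein of notochordal NP cells, ranged from 278 to 695 CPM, and S100b, a calcium-binding protein of cartilage and glia, from 503 to 1025 CPM.

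To compare cells of unequal depth, 1000 UMIs were drawn from each cell, which left out 209 IAF cells, 3 OAF cells and 156 endothelial cells of CON, 383, 39 and 122 of LDP, and no NP cell. At that depth 91.5% ± 1.49 of CON and 93.2% ± 3.14 of LDP NP cells had an Acan UMI (99.9% of both with all UMIs). Endothelial cells of the same libraries, which should lack the gene, had it in 17.7% and 16.1%, with medians of 1682 to 3511.5 UMIs per cell before drawing. A Cd24 UMI was found in 25.7% ± 4.29 and 29.2% ± 10.1 of NP cells (75.5% and 79.5% with all UMIs), and in 3.75% and 3.82% of endothelial cells. For S100b the shares were 43.7% ± 5.86 and 50.4% ± 6.28 in NP cells (93.9% and 97.1% with all UMIs) and 4.08% and 4.80% in endothelial cells. Col2a1 was found in 80.8% ± 13.3 and 81.6% ± 4.00 of NP cells (98.3% and 98.9% with all UMIs), but also in 45.6% and 35.2% of endothelial cells, so its share carries a high background.

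Of the defining notochordal genes, those measured were all low. Krt8 ranged from 11.03 to 38.7 CPM and was found in 1.83% of CON and 2.25% of LDP NP cells at 1000 UMIs, against 0.315% and 0.193% of endothelial cells. With all UMIs it was found in 7.82% and 9.58% of NP cells and in 0.490% and 0.801% of endothelial cells. Krt18 and Krt19 stayed below 5 CPM in every library and were found in 0.104% to 0.416% of the NP cells of a library at 1000 UMIs. Tbxt, the brachyury transcription factor, stood at 0.0525 to 3.11 CPM, and Foxa2, a transcription factor of the notochord, at 1.47 to 10.3 CPM, with a UMI in 1.81% of CON and 3.33% of LDP NP cells when all UMIs were used. Car3, a carbonic anhydrase used as a rodent NP marker, was at 0 CPM in CON library 2 and reached 21.7 CPM in CON library 1 and 15.7 CPM in LDP library 4. T under its older symbol, Shh and Noto are not listed. The 4 markers given for the cell type were therefore present, while the notochordal ones were low, and the name NP is used below only as the authors' name of the subcluster.

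The genes with the most UMIs in NP cells were mostly matrix genes of cartilage. Apart from AC134224.3, with 83846 CPM, they were led by Sparc, a collagen-binding matricellular protein, at 16320 CPM (12528 to 18758), and fibronectin (Fn1) at 10596 CPM (7774 to 13905). Col2a1 followed at 10438 CPM, chondroadherin (Chad), a collagen-binding cartilage protein, at 9699 CPM, and the small proteoglycan decorin (Dcn) at 9477 CPM. Comp, which bridges collagen fibres, stood at 7815 CPM, the cartilage lectin Clec3a at 7533 CPM and the cartilage proteoglycan Snorc at 4585 CPM. These means are over all 8 libraries.

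**Figure D1:**
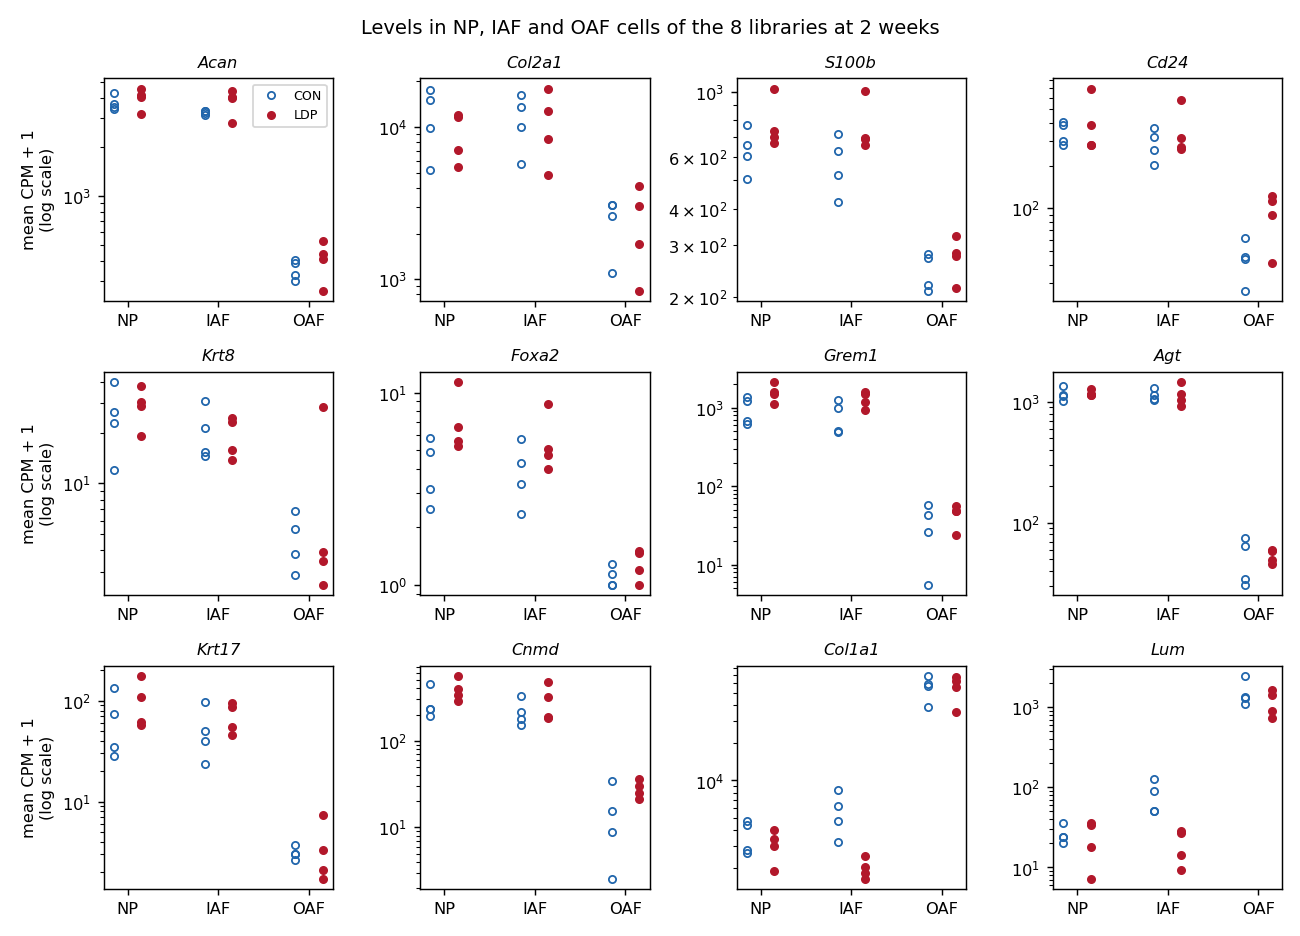
Mean CPM + 1 on a logarithmic axis of 12 genes in NP, IAF and OAF cells, with 1 point per library (open, CON; filled, LDP; n = 4 each). NP and IAF points lie at similar heights for the cartilage genes, while OAF points are lower, as for Acan (380 CPM in OAF against 3866 CPM in NP, means of 8 libraries), and Col1a1 and Lum are the reverse.

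The next comparison set NP cells beside the IAF and OAF cells of the same libraries. The authors drew the subclusters from these same values, so the differences are descriptions and no test was made. A ratio is the log2 of (mean CPM + 1) in NP over that in the other cells, taken within each library and averaged over 8 libraries, which understates the ratio of genes near 0.

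Between NP and IAF cells hardly any gene differed by much. Of 2544 genes at 50 CPM or more in either, 461 were higher in NP in 8 of 8 libraries (18.1%) and 82 were lower (3.22%), but 0 were 2-fold higher and 0 were 2-fold lower in every library (0% each way). The median size of the log2 ratio was 0.08, and over these genes the 2 log2 profiles correlated with Pearson's r = 0.995, a value across genes of the same libraries. The markers stood close together, with mean log2 ratios of 0.14 for Acan, 0.23 for Cd24 and 0.10 for S100b, each above 0 in 8 of 8 libraries, and of −0.09 for Col2a1, above 0 in 3 of 8. These small ratios depended on the cells compared, since S100b stood at −0.14 and Acan at −0.0225 in cells with 4000 to under 6000 UMIs, and S100b at −0.00212 and Col2a1 at 0.12 with joint names, from K-means clustering of all libraries at once. At 1000 UMIs, 88.4% and 91.5% of IAF cells of CON and LDP had an Acan UMI, close to the NP shares. The 4 markers named for NP cells therefore did not part them from the IAF cells.

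The genes furthest above IAF were led by Cyp26b1, the enzyme that breaks down retinoic acid, at 237 CPM in NP and 163 CPM in IAF (mean log2 ratio 0.56, range 0.28 to 0.96). The other leading ones included Sft2d2 (0.47), the amino acid transporter Slc7a1 (0.44), Inhba, the subunit of activin A (0.43), and chondromodulin (Cnmd), a cartilage protein that hinders vessel growth (0.42). Chst3, a chondroitin sulfotransferase, stood at 0.38, and Mylip, Psme3, Ptpn4 and Med1 at 0.37 to 0.38. None of them reached a mean of 1, which is a doubling.

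Below IAF in every library were the heat shock gene Hspa1a (−1.16), AABR07000398.1 (−0.94), the NF-κB inhibitor Nfkbia (−0.75) and the immediate early gene Fosb (−0.70). Col4a2, a basement membrane collagen, stood at −0.50, Ibsp, a bone matrix protein, at −0.43, Rgcc at −0.42, Mt-atp8 at −0.36, Sparcl1 at −0.35 and cystatin C (Cst3) at −0.33. With the joint K-means names the direction turned for Hspa1a (0.0826), Nfkbia (0.0478), Col4a2 (0.13) and Sparcl1 (0.48). Hspa1a was the lowest under the authors' names, with 37.4 CPM in NP against 87.2 CPM in IAF cells.

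The small NP to IAF ratios were not the same in both groups. Over the 2544 genes, the mean ratios of the CON and the LDP libraries correlated with r = 0.513, and 1839 of them (72.3%) had the same sign. Several of the fixed annulus markers changed sign. For Col1a1, the main collagen of fibrous tissue, the mean log2 ratio was −0.60 in CON and 0.59 in LDP, and for lumican (Lum), a collagen fibril proteoglycan, it was −1.55 in CON and 0.16 in LDP. Myoc stood at −2.65 in CON and 0.55 in LDP. Endothelial and pericyte markers in IAF cells summed to 27.5 to 365 CPM and 131 to 368 CPM in CON, against 15.2 to 35.1 CPM and 122 to 159 CPM in LDP, and their part in these ratios was not tested. CON and LDP cells were clustered apart by the authors. When the disc cells of all 8 libraries were clustered together by K-means into 3 clusters, 71.0% to 78.1% of the NP cells of a CON library and 81.2% to 92.1% of an LDP library stayed in the NP cluster, and the Col1a1 ratio over IAF became 1.16. When each cell was given the name of the nearest CON profile, 37.8% of the NP cells of LDP library 4 and 67.5% to 76.5% of those of the other 7 libraries were named NP again, and 48.2% to 89.2% of the cells so named had been NP.

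Depth was the plainest difference between NP and IAF cells, so cells with 4000 to under 6000 UMIs were also compared, a range chosen after seeing the data. It held 10.6% to 30.7% of the NP cells of a CON library and 1.56% to 17.53% of an LDP library, the shallower end of NP, with only 60 cells in LDP library 4, against 19.1% to 55.6% of IAF cells, and the median depth within it was 5127 to 5606 UMIs in NP and 4546 to 5226 in IAF cells. There the Col2a1 ratio of NP over IAF was −1.90, that of Acan −0.02 and that of Cyp26b1 0.89. In that range the median size of the log2 ratio was 0.32, against 0.08 over all cells, and 1408 of 2784 genes (50.6%) were higher in NP in 8 of 8 libraries and 258 (9.27%) lower. There 3 genes were 2-fold lower in NP in every library and 0 were 2-fold higher.

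OAF cells differed from NP cells far more. Of 3029 genes, 1189 were higher in NP in 8 of 8 libraries (39.3%) and 955 were lower (31.5%), and 270 were 2-fold higher (8.91%) and 264 were 2-fold lower (8.72%) in every library. The correlation across these genes was r = 0.668. Acan was 3.36 higher on the log2 scale (range 2.98 to 3.62), Cd24 2.58, Krt8 2.36 (range 0.41 to 3.05), Foxa2 2.12, Col2a1 2.15 and S100b 1.44. The other notochordal genes were low and did not all go this way. Krt18 stood at 1.55, Krt19 at 1.54, Tbxt at 0.19 (above 0 in 6 of 8 libraries) and Car3 at −0.22 (in 4 of 8). Of the notochord and NP marker list, Lgals3 stood at 2.44, Car12 at 2.39 and Basp1 at −2.52 (above 0 in 0 of 8). In cells with 4000 to under 6000 UMIs the Col2a1 ratio was 0.19, while that of Acan was 3.21.

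Of the genes above OAF, gremlin 1 (Grem1), which binds and blocks bone morphogenetic proteins, had the highest ratio and stood at 1270 CPM in NP and 37.3 CPM in OAF cells (mean log2 ratio 5.22, range 4.41 to 6.83). Next were the protease inhibitor Mug1 (4.61), angiotensinogen (Agt), the precursor of the angiotensins (4.55, with 1168 and 50.9 CPM), the epithelial keratin Krt17 (4.53) and the testican proteoglycan Spock1 (4.44). Zfp385b (4.41), the coagulation factor subunit F13a1 (4.26), Cnmd (4.22), the ciliary gene Tekt1 (4.19) and the prohormone convertase Pcsk2 (4.17) completed the 10.

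Of the genes below OAF, myocilin (Myoc) had a mean log2 ratio of −6.99, the Wnt modulator Sfrp2 −6.56, periostin (Postn) −6.33, insulin-like growth factor 1 (Igf1) −6.05 and tenomodulin (Tnmd), a tendon marker, −6.01. Lum (−5.83), Pla2g2a (−5.81), keratocan (Kera, −5.50), Egfl6 (−5.43) and Mme (−5.34) followed. Of the annulus and fibrous matrix list, Igfbp6 stood at −4.91, Igfbp5 at −4.56, Scx at −4.12, Sparc at −0.59 and Fn1 at 1.32. Col1a1 stood at −4.07, although Col1a1 still had 3356 CPM in NP cells. Under the joint K-means names the contrast was much weaker, with 2 genes 2-fold higher and 93 2-fold lower in every library.

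**Figure D2:**
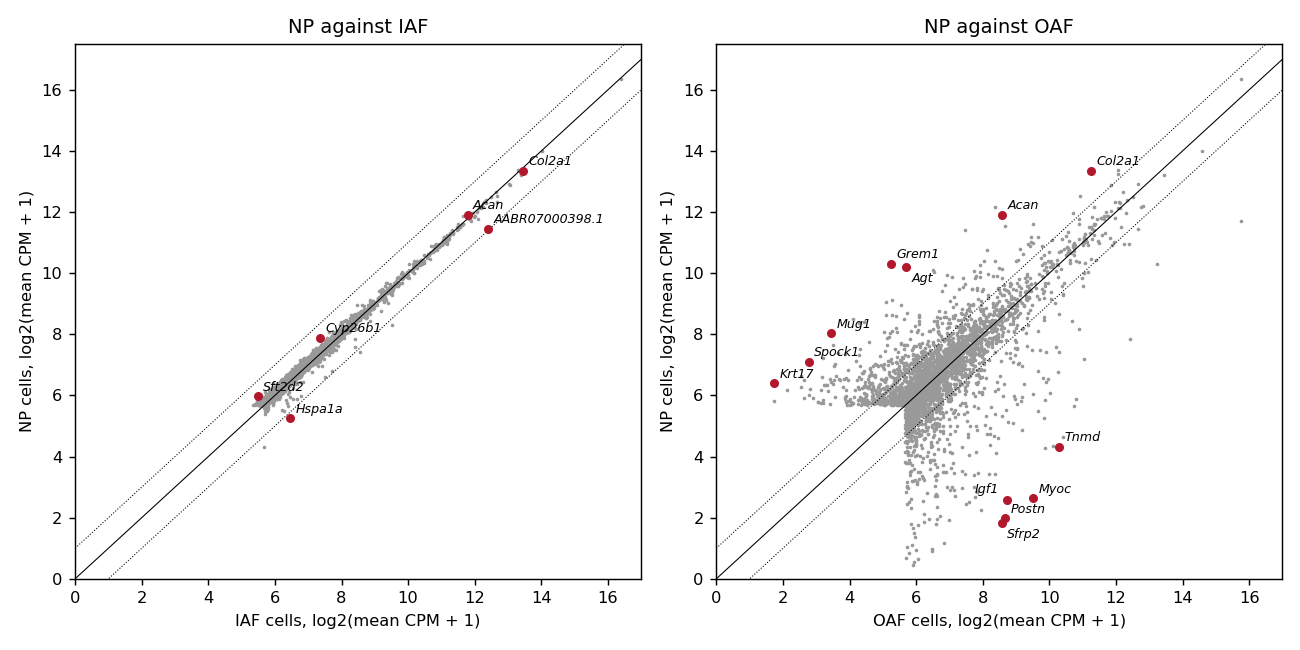
Log2(mean CPM + 1) in NP cells (vertical axis) against IAF cells (left) and OAF cells (right), means of 8 libraries, with 1 point per gene at 50 CPM or more in either. The solid line marks equal levels and the dotted lines a 2-fold difference. Points hug the line for IAF (r = 0.995) and scatter for OAF (r = 0.668), where Grem1, Agt and Acan lie above it and Myoc, Sfrp2 and Tnmd below.

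NP cells of 1 library differed in their collagen level. The range between the 10th and 90th percentile of Col2a1 over NP cells was 5.22 to 6.84 on the log2(CPM + 1) scale in the 8 libraries, against 1.75 to 2.40 for Acan and 1.52 to 2.33 for Comp, and was 4.62 to 13.4 for Col1a1 and 5.80 to 13.2 for Prg4. Other genes that were at 0 in many cells also spread widely, such as Grem1 (10.8 to 12.3), Cnmd (9.36 to 10.9) and Cd24 (3.93 to 9.87). Cells were therefore split within each library, and the 25% with the most Col2a1 were set beside the 25% with the least, as a description with no test, since Col2a1 chose the cells. In CON library 1 these sets averaged 53797 and 744 CPM of Col2a1, and in LDP library 4, 15067 and 406 CPM. The Col2a1-high cells were deeper in every library, with medians of 8937 to 11948 UMIs against 5672 to 9277.5 in the Col2a1-low cells.

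Several collagen and other matrix genes were higher in the Col2a1-high cells. Of 2514 genes, 385 were higher in the Col2a1-high cells in 8 of 8 libraries (15.3%) and 1229 were lower (48.9%). CPM is a share of a cell's UMIs, so more UMIs of Col2a1 and other matrix genes lower the CPM of the rest. The part of this in the ratios was not tested. Col9a1, which coats collagen II fibrils, had the highest mean log2 ratio at 4.44 (range 3.63 to 4.99). Then came Ibsp (2.61), Wisp3, a secreted matricellular protein (2.55), Sparc (2.52), Col3a1 (2.08) and the collagen XI chains Col11a2 (2.08) and Col11a1 (2.02). Of the cartilage matrix list 16 of 21 genes were higher in every library (median 0.83), of the annulus and fibrous matrix list 16 of 21 (median 1.29) and of the endoplasmic reticulum (ER) chaperone list 16 of 22 (median 0.41), beside a median of −0.23 over all genes.

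Lower in the Col2a1-high cells were, among others, some of the genes named above for the contrast with OAF (Krt17, Agt, Spock1 and Grem1). Of all genes 48.9% were lower in 8 of 8 libraries, and not all genes of that contrast are given here. Sfrp5, a Wnt inhibitor, had a mean log2 ratio of −2.77, the lipopolysaccharide-binding protein Lbp −2.30, the matricellular Smoc2 −2.27, Krt17 −2.26, the glutathione peroxidase Gpx2 −2.05, Agt −1.94, Spock1 −1.78 and Grem1 −1.55, all below 0 in 8 of 8 libraries. The membrane metalloprotease Mmp14 stood at −1.64. Acan (−0.09) and S100b (−0.09) lay near 0 and were above it in 3 of 8 libraries.

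**Figure D3:**
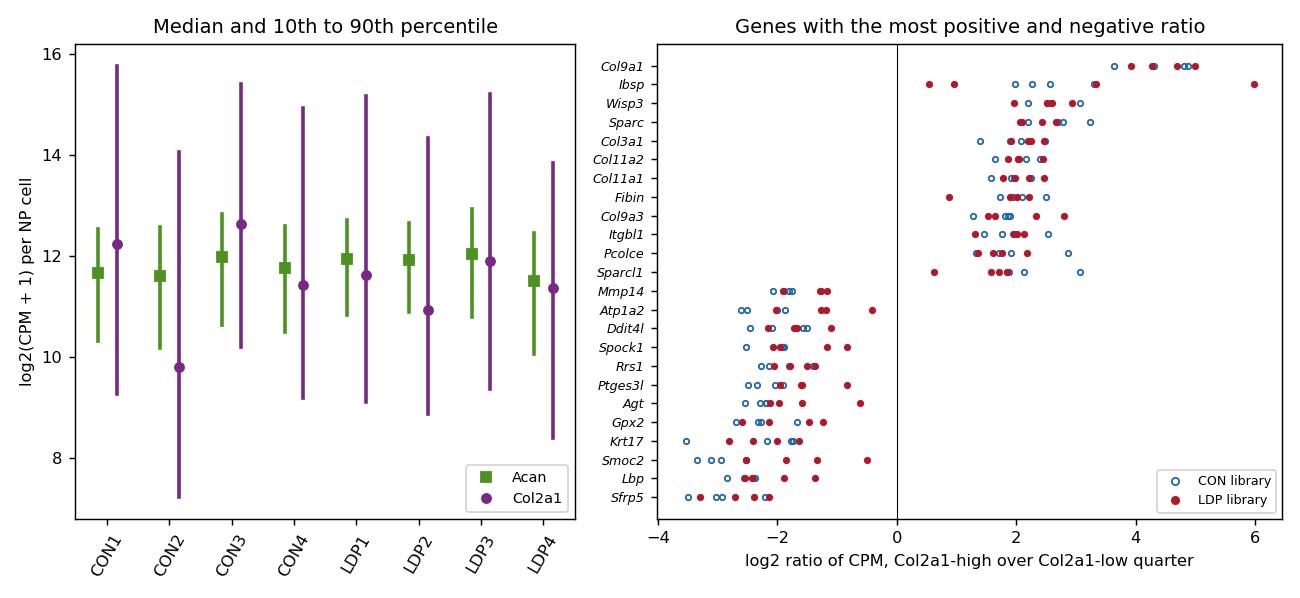
Left, median (marker) and 10th to 90th percentile (bar) of log2(CPM + 1) over NP cells for Acan and Col2a1 in each library. Right, log2 ratio of mean CPM in the Col2a1-high over the Col2a1-low 25% of NP cells, with 1 point per library, for the 12 genes with the highest and the 12 with the lowest mean. The Col2a1 bars span 5.22 to 6.84 units and the Acan bars 1.75 to 2.40, and Col9a1 heads the right panel at a mean of 4.44.

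Whether puncture altered the NP cells was asked by comparing LDP with CON, with the library as the unit and the rat as a block. As given above, NP cells of CON and of LDP were named in separate clusterings, so the naming may differ between the groups. A mean over cells does not by itself tell fewer molecules per cell from fewer cells expressing a gene. Shares of cells with a UMI were tested for 17 markers only. Of 7759 genes with a mean of at least 5 CPM, limma called 0 higher (0%) and 0 lower (0%) at an adjusted p under 0.05, and the smallest adjusted p was 0.0600. At an unadjusted p under 0.05 there were 411 higher (5.3%) and 336 lower (4.33%). That count rested on the libraries used, with 1234 higher and 491 lower without rat 4, whose LDP library stood apart, and 191 to 249 higher and 208 to 269 lower without 1 of the other rats. With means of log2 values over cells it was 866 higher and 252 lower. Higher in LDP in 4 of 4 rats were 1048 genes (13.5%) and lower 769 (9.91%), and the groups did not overlap for 336 higher (4.33%) and 201 lower genes (2.59%). On whole counts recovered from the values, edgeR with TMM scaling called 1 higher and 0 lower and without it 0 either way, while DESeq2 called 79 higher (1.02%) and 82 lower (1.06%). All differences below are limma log2 differences of mean CPM + 1, LDP minus CON, and none of them passed limma's adjusted threshold.

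Atp1b1, a subunit of the sodium pump, came closest. It stood at 13.7, 5.14, 5.67 and 4.26 CPM in CON libraries 1 to 4 and at 39.7, 18.5, 24.7 and 15.2 CPM in LDP libraries 1 to 4. All LDP libraries lay above all CON libraries, and the log2 difference was 1.68 ± 0.14 (SE, limma adjusted p = 0.0600). Pla2g7, a phospholipase that degrades platelet-activating factor, gave 11.1, 6.99, 8.72 and 6.33 CPM in CON and 34.3, 17.1, 27.0 and 23.6 CPM in LDP, again without overlap (1.499 ± 0.146, limma adjusted p = 0.0810). The laminin chain Lamb3 had 10.7, 7.46, 12.04 and 8.79 CPM in CON and 23.4, 20.1, 26.3 and 23.7 CPM in LDP (1.20 ± 0.13, limma adjusted p = 0.103). All 3 were genes of low level, at most 39.7 CPM in any library.

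The remaining genes of the leading 10 had log2 differences of 0.95 to 1.29. They were LOC691995 (1.24), Angptl4, an inhibitor of lipoprotein lipase (1.29), the carbonic anhydrase Car12 (1.13), C1qtnf4 (1.04), the lipid droplet protein Cidec (1.12), Adm2, a peptide of the calcitonin family (1.02), and Chrdl2, an antagonist of bone morphogenetic proteins (0.95). Car12, which also marks notochordal NP cells, had 4.02, 3.33, 3.41 and 4.29 CPM in CON and 11.2, 9.67, 6.86 and 10.4 CPM in LDP, without overlap. Cidec and Chrdl2 overlapped between the groups although each was higher in LDP in 4 of 4 rats.

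Gelsolin (Gsn), which cuts actin filaments, was the clearest of the lower genes that are abundant. It stood at 1506, 1779, 1942 and 2106 CPM in CON and at 996, 972, 903 and 874 CPM in LDP, with every LDP library below every CON library (−0.96 ± 0.14, limma adjusted p = 0.158). RGD1305645 had 6358, 6045, 8810 and 6928 CPM in CON and 4484, 4376, 5653 and 4404 CPM in LDP, also without overlap (−0.57 ± 0.09, limma adjusted p = 0.177). Sparcl1, a relative of Sparc, had 71.3, 76.2, 98.1 and 85.8 CPM in CON and 30.1, 36.8, 54.2 and 37.4 CPM in LDP (−1.07 ± 0.14, limma adjusted p = 0.158).

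The others named were lower in 4 of 4 rats but overlapped between groups. They were the flow- and stress-responsive transcription factors Klf2 (−1.17) and Klf6 (−1.22), Sh3bgr (−1.03), Irs3, an insulin receptor substrate (−1.12), the cartilage cytokine Cytl1 (−0.68) and Creg1 (−0.89). Klf6 was at 157 CPM in CON library 2, against 33.7 to 69.8 CPM in the other CON libraries.

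**Figure D4:**
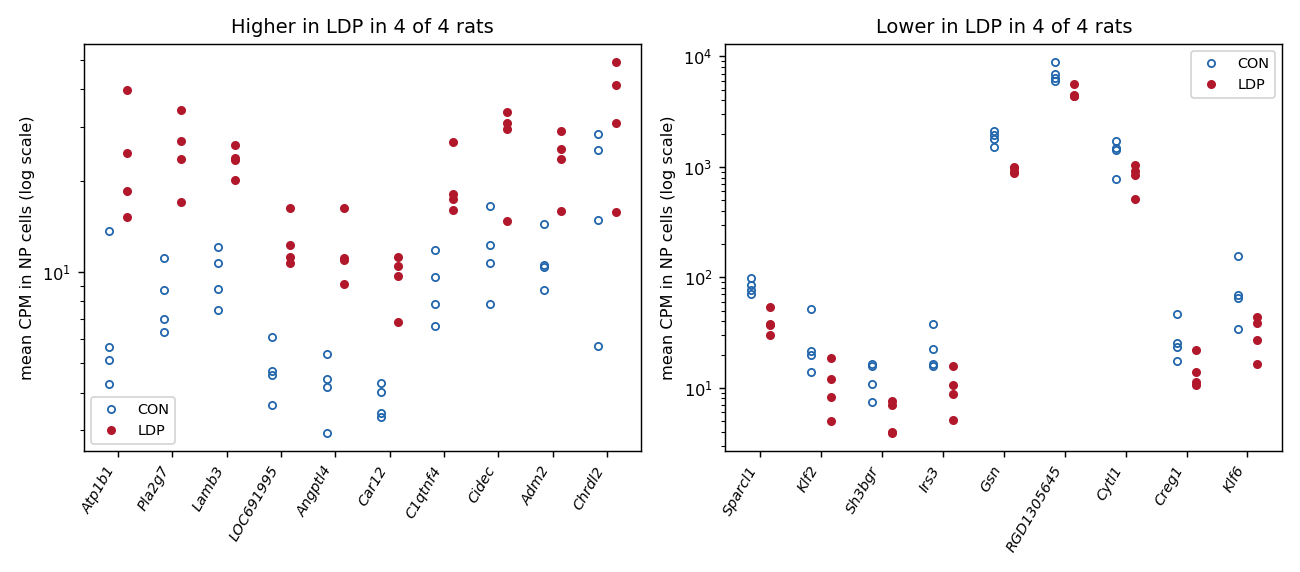
Mean CPM in NP cells on a logarithmic axis for the 10 genes with the smallest p among those higher in LDP in 4 of 4 rats (left) and 9 of the 10 lower (right), with 1 point per library (open, CON; filled, LDP; n = 4 each). Groups are apart for Atp1b1, Pla2g7, Lamb3, Gsn and Sparcl1 and overlap for Cidec, Chrdl2 and Klf6, and none passed limma's adjusted threshold.

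No NP marker passed limma's adjusted threshold between the groups. The log2 difference was 0.09 for Acan (−0.0137 to 0.19 over all settings), −0.33 for Col2a1 (−0.16 without rat 4, −0.59 without rat 2 and 0.0298 with the nearest profile), 0.17 for Cd24 (−0.0378 without rat 4), 0.30 for S100b (in 4 of 4 rats, and 0.56 with means of log2 values) and 0.28 for Krt8 (0.16 without rat 2), and the groups overlapped for each of the 5. Among 17 markers, the share of NP cells with a UMI at 1000 UMIs passed the threshold for 0 after Benjamini-Hochberg adjustment. Krt19 was found in 0.367% of CON and 0.195% of LDP NP cells and Foxa2 in 0.287% and 0.613%, each without overlap (exact permutation test, p = 0.0286 unadjusted and 0.243 adjusted for both). At 2000 UMIs the same exact test gave an unadjusted p of 0.0571 for Krt19 and 0.114 for Foxa2, and with all UMIs 0.0286 and 0.0857. Igfbp5, an insulin-like growth factor binding protein of the annulus, was found in 11.1% of CON and 6.27% of LDP NP cells, close to the 10.9% and 7.02% of endothelial cells. Its level was 444, 184, 289 and 358 CPM in CON and 152, 155, 143 and 113 CPM in LDP, without overlap (−1.11 ± 0.24, limma adjusted p = 0.278). Over all settings the Igfbp5 difference ran from −2.16 to −0.935, and it passed with DESeq2 (adjusted p = 0.000359).

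Gene lists are described by the median log2 difference of their tested members and by how many were higher or lower in LDP in 4 of 4 rats, beside a median of −0.02, 13.5% higher and 9.91% lower over all 7759 genes. No list held a gene called by limma. With rats 1 to 4 left out in turn, the median over all genes was −0.0410, −0.0548, −0.0555 and 0.0674, and list medians without a rat are to be read beside these.

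Of the matrix genes of cartilage-like disc cells 3 of 22 were higher and 2 lower in every rat (median 0.06, from 0.0498 to 0.12 with 1 rat left out). Versican (Vcan), a large proteoglycan, had 950, 898, 1032 and 918 CPM in CON and 710, 668, 528 and 365 CPM in LDP, without overlap (−0.79). Scrg1, a cartilage-expressed secreted peptide, had 778, 594, 609 and 742 CPM in CON and 909, 1105, 830 and 1747 CPM in LDP, without overlap in the other direction (0.70). Cnmd stood 0.56 higher in LDP, in 4 of 4 rats, and Chad was 0.42 lower on the log2 scale, in 3 of 4 rats. Of the annulus and fibrous matrix list 1 of 27 was higher and 3 lower (median −0.28, from −0.44 without rat 2 to −0.13 without rat 4), with Fn1 at −0.34, Igfbp5 at −1.11, Tppp3 at 0.56 (0.34 without rat 4), Col1a1 at −0.24 (0.0834 without rat 1) and Sparc at 0.08. Over all settings Col1a1 ran from −0.93 to 0.0834.

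The notochord and NP marker list had 3 of 11 higher and 1 lower (median 0.20). Besides Car12, the higher ones were Basp1 (0.98, and 0.58 without rat 3), a membrane protein, and the lectin Lgals3 (0.31), and the lower one was Pax1 (−0.46), a transcription factor of the sclerotome that forms the disc and vertebrae. Of 12 chondrogenic and NP transcription factors 0 were higher and 3 lower (median −0.16, from −0.30 without rat 1 to 0.0587 without rat 4). Sox9, the main regulator of the cartilage programme, had 730, 1064, 866 and 658 CPM in CON and 583, 651, 655 and 488 CPM in LDP (−0.47 ± 0.12, limma adjusted p = 0.358). The lowest CON library lay only just above the highest LDP library. Foxc1 stood at −0.33, and Hif1a, the hypoxia-regulated transcription factor, at −0.21 (0.0948 without rat 4), with 1231 CPM in LDP library 4 against 2183 to 2937 CPM in the other 7 libraries. The hypertrophy and mineralization list had 2 of 10 higher and 0 lower (median 0.30, from 0.0377 without rat 4 to 0.47 without rat 2), with Phospho1 (0.89), a phosphatase that starts mineral formation, without overlap and Ibsp (0.78, 0.36 without rat 1 and −0.22 with means of log2 values) resting on LDP library 1, which had 1678 CPM against 164 to 409 CPM in the other 7.

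Genes of hypoxia and glycolysis were the list with the largest share higher, 13 of 27 (48.1%) in 4 of 4 rats and 1 lower (median 0.27), of which 8 did not overlap between groups, against 4.33% of all genes. Carbonic anhydrase 9 (Car9), a target of hypoxia-inducible factors, had 29.3, 29.2, 26.9 and 25.1 CPM in CON and 47.1, 32.6, 44.2 and 84.5 CPM in LDP (0.81 ± 0.25, limma adjusted p = 0.431, and 0.50 without rat 4). Pdk1, a kinase that inhibits pyruvate dehydrogenase, had 23.4, 21.0, 21.0 and 21.0 CPM in CON and 40.4, 34.6, 25.04 and 47.6 CPM in LDP (0.71 ± 0.17, limma adjusted p = 0.337). Neither overlapped between the groups. Lactate dehydrogenase A (Ldha) stood at 0.25 (0.15 without rat 4) and the collagen prolyl hydroxylase P4ha1 at 0.38, both also without overlap. Without rat 4, whose LDP library stood apart, the list's median was 0.18 and 14 of 27 were higher in the remaining 3 rats, beside a median of 0.0674 and 2626 of 7759 over all genes.

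Immediate early and stress genes had a median of −0.67, with 11 of 25 lower in 4 of 4 rats (44%) and 1 higher, Hspb1 (0.30). Egr1, a transcription factor induced within minutes of stimulation, had 110, 2614, 107 and 77.4 CPM in CON and 68.2, 66.8, 99.5 and 55.3 CPM in LDP (−1.63 ± 0.82, limma adjusted p = 0.557). CON library 2 stood far above the rest. Nr4a1, another of this class, had 54.7, 180, 53.8 and 19.3 CPM in CON and 20.001, 24.2, 11.8 and 17.4 CPM in LDP (−1.62 ± 0.40, limma adjusted p = 0.346). Without rat 2 the list's median was −0.23, above that of the annulus list (−0.44), and the log2 difference of Egr1 was −0.42. In the remaining 3 rats 11 of 25 were lower and 4 higher, beside 1433 lower and 1357 higher of 7759 over all genes.

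ER chaperone and unfolded protein response genes had 0 of 26 higher and 7 lower in every rat (median −0.18). Without rat 2 the median was −0.07, close to the −0.05 over all genes. Hspa5, the main ER chaperone, had 3634, 7711, 3931 and 3750 CPM in CON and 3041, 2874, 3392 and 1935 CPM in LDP, without overlap (−0.71 ± 0.21, limma adjusted p = 0.423). Ddit3, the stress transcription factor CHOP, was at 838 CPM in CON library 2 and 137 to 166 CPM in the other CON libraries, against 123 to 136 CPM in LDP (−0.85, and −0.24 without rat 2). Hsp90b1 stood at −0.43 (−0.23 without rat 4).

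**Figure D5:**
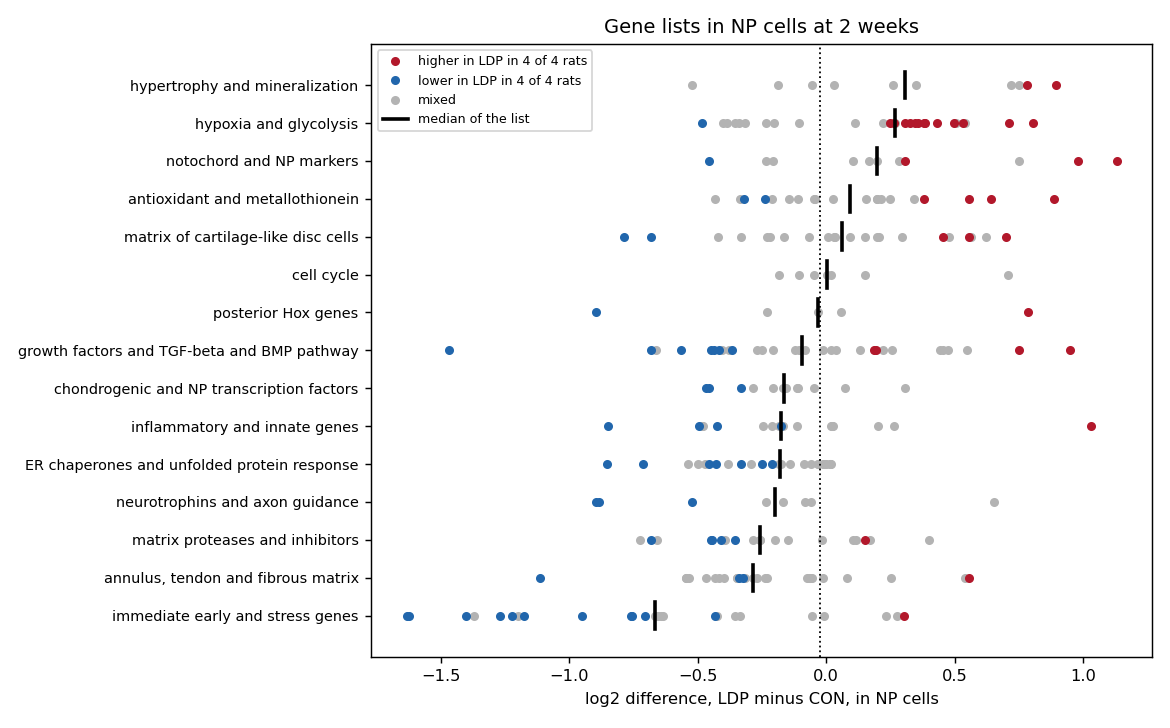
Limma log2 difference (LDP minus CON) in NP cells of the tested members of 15 gene lists, with 1 point per gene, coloured by whether it was higher or lower in LDP in 4 of 4 rats. Black bars are list medians and the dotted line is the median of all tested genes (−0.02). The hypoxia and glycolysis list has its median at 0.27 and the immediate early and stress list at −0.67.

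Among matrix proteases and inhibitors 1 of 19 was higher and 5 lower (median −0.26). Htra1, a secreted serine protease, had 2208, 3446, 2795 and 1944 CPM in CON and 1911, 2286, 2033 and 1340 CPM in LDP, which overlapped (−0.45). Adamts1, an aggrecan-cleaving metalloprotease, stood at 8.20 to 9.25 CPM in CON and 3.12 to 6.62 CPM in LDP (−0.68), and the lysosomal protease Ctsl at 0.12 (−0.12 at 4000 to under 6000 UMIs). In NP cells with 4000 to under 6000 UMIs the difference for Adamts1 was 0.78, from only 4 to 66 UMIs of the gene per library.

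Of growth factors and genes of the TGF-β and BMP pathways 4 of 30 were higher and 7 lower (median −0.09, from −0.0816 to −0.0103 with 1 rat left out). The BMP antagonist Grem1 had 1360, 625, 672 and 1208 CPM in CON and 2105, 1580, 1107 and 1498 CPM in LDP, higher in 4 of 4 rats with overlapping groups (0.75 ± 0.17, limma adjusted p = 0.337). Cyr61, a matricellular protein induced by stretch and serum, had 272, 945, 349 and 93.1 CPM in CON and 198, 165, 100 and 42.2 CPM in LDP (−1.47 ± 0.32, limma adjusted p = 0.261). Its relative Ctgf stood at −0.21 (0.23 without rat 2), with 6080 CPM in CON library 2.

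Inflammatory and innate genes had 1 of 17 higher and 4 lower (median −0.18). Lipocalin 2 (Lcn2), an iron-binding innate protein, stood 1.03 higher in LDP at 7.59 to 17.6 CPM against 2.42 to 13.1 CPM, and mitochondrial superoxide dismutase (Sod2) stood at −0.21 (−0.12 without rat 4). Of the antioxidant and metallothionein list 4 of 20 were higher and 2 lower (median 0.09, from 0.0589 to 0.16 with 1 rat left out). Metallothionein Mt1 had 1475, 1033, 1174 and 1011 CPM in CON and 1838, 1749, 1831 and 3588 CPM in LDP, without overlap (0.89, and 0.57 without rat 4). Mt2A (0.55) and the glutathione peroxidase Gpx1 (0.64) overlapped between groups, and the haem-degrading Hmox1 (−0.43, and −0.15 without rat 2) was at 4252 CPM in CON library 2 against 1398 to 1781 CPM in the other CON libraries.

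Nerve-related genes were of interest because disc pain is tied to nerve ingrowth. The neurotrophin receptor Ngfr stood at 6.44 to 22.2 CPM with a difference of −0.06, which turned in sign under several settings. Of the axon guidance genes, 3 were lower in 4 of 4 rats, with −0.52 for Sema3d (167 to 256 CPM in CON and 107 to 160 CPM in LDP, without overlap), −0.90 for Sema3a (−0.49 without rat 4) and −0.88 for netrin 1 (Ntn1). Of that list 0 of 8 were higher and 3 lower (median −0.20, from −0.35 without rat 1 to −0.0368 without rat 4).

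The posterior Hox genes bear on the spine level. Hoxd9 had 22.9, 14.4, 13.5 and 16.6 CPM in CON and 32.8, 28.6, 26.1 and 29.8 CPM in LDP (0.79 ± 0.14, limma adjusted p = 0.225), and Hoxc8 had 19.1, 23.7, 30.6 and 29.6 CPM in CON and 9.06, 17.9, 16.8 and 10.8 CPM in LDP (−0.90 ± 0.18, limma adjusted p = 0.244). Neither overlapped between the groups, and Hoxc9 stood at −0.23 (−0.14 without rat 1 and −0.38 without rat 2). Hox genes mark position along the body axis, and the LDP discs lay below the CON discs in every rat, so puncture and level cannot be told apart here. Of the cell cycle list 7 genes passed the filter and 0 were higher or lower in every rat, with Mki67 at 0.71 and overlapping (−1.08, 0.17, 2.16 and 1.58 in rats 1 to 4).

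Markers of other cell types moved between libraries in NP cells. The summed level of 9 listed granulocyte and erythroid markers was 13.0 to 357 CPM in CON and 3.95 to 875 CPM in LDP, of 9 listed lymphoid markers 2.82 to 11.8 and 2.48 to 72.7 CPM, and of 5 listed osteoblast markers 187 to 481 and 306 to 1747 CPM. The highest sums were in LDP library 4, LDP library 3 and LDP library 1 in that order. Endothelial (17.1 to 50.03 and 15.8 to 22.9 CPM), pericyte (128 to 177 and 136 to 185 CPM), Schwann (11.6 to 19.7 and 4.46 to 15.8 CPM) and skeletal muscle markers (5.32 to 14.1 and 3.72 to 6.49 CPM) were lower or overlapped. Myeloid markers summed to 7.41 to 20.4 CPM in CON and 5.42 to 40.8 CPM in LDP, with LDP library 3 (40.8 CPM) and LDP library 4 (24.6 CPM) above every CON library. The part of these markers in the differences above was not tested.

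Whether the LDP minus CON difference in NP cells was unlike that in the annulus was tested directly, on the difference between subclusters within each library. Against IAF cells limma called 1 of 7613 genes higher (0.0131%) and 0 lower (0%), with 1182 and 66 at an unadjusted p under 0.05. The 1 gene was Angptl1, a secreted angiopoietin-like protein, which stood at 12.1 to 29.1 CPM in CON and 11.8 to 25.4 CPM in LDP NP cells (−0.06) and at 21.3 to 41.2 CPM in CON and 8.01 to 16.2 CPM in LDP IAF cells (−1.25). Annulus markers moved with it in IAF cells, where Col1a1 stood at 3203 to 8469 CPM in CON and 1634 to 2474 CPM in LDP and Lum at 50.1 to 127 CPM and 8.40 to 27.7 CPM, and Angptl1 itself was higher in OAF (295 CPM) than in NP cells (19.9 CPM). Their part in this call was not tested. The difference of the differences was 1.19 ± 0.09 (limma adjusted p = 0.0229), and it was no longer called without rat 2, 3 or 4, where the smallest limma adjusted p of any gene was 0.103, 0.132 and 0.272.

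Against OAF cells 193 of 7392 genes were called higher (2.61%) and 162 lower (2.19%) by limma. The lower ones were led by Acta2 (smooth muscle actin, −4.07 ± 0.21), Mcam (−3.12), Rasal2 (−2.97), Sorbs2 (−2.58) and Ngfr (−2.21). For Ngfr the LDP minus CON difference was −0.06 in NP and 2.16 in OAF cells, where it had 3.94 to 10.4 CPM in CON and 22.7 to 62.4 CPM in LDP. The higher ones were led by Ndufaf1 (1.32), Asap1 (1.02), Fra10ac1 (1.02), LOC103689965 (1.81) and Ssbp1 (0.97). The NP part of each of these 10 differences lay between −0.65 and 0.68, with no call in NP.

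Markers of other cells also differed between the groups in OAF cells. Pericyte and smooth muscle markers summed to 103 to 145 CPM in CON and 620 to 930 CPM in LDP OAF cells, and Schwann markers to 4.57 to 6.66 and 201 to 824 CPM. OAF cells with 3 or more UMIs of either list were then left out, a step chosen after seeing the data. It removed 4.13% to 7.05% of CON and 15.9% to 21.8% of LDP OAF cells. Acta2 is itself on the pericyte and smooth muscle list, so cells were removed by its own UMIs. With them left out limma called 0 higher and 0 lower (smallest adjusted p = 0.0573, with 1040 and 317 at an unadjusted p under 0.05). Acta2 and Mcam did not pass the filter of a mean of 5 CPM in the remaining OAF cells and were not tested. The differences of the leading higher genes were then 1.22 for Ndufaf1, 0.97 for Asap1, 0.87 for Fra10ac1, 1.72 for LOC103689965 and 0.85 for Ssbp1 (limma adjusted p 0.0573 to 0.0658). Of the lower ones, Sorbs2 stood at −1.32, Rasal2 at −0.80 and Ngfr at −0.43 (limma adjusted p 0.0573, 0.0947 and 0.264). By rat, without 1 rat the called numbers were 12 to 65 higher and 51 to 83 lower, the fewest without rat 3.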

How the data were processed

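Discs of 4 rats were dissociated and sequenced as single cells with 3′ UMI libraries, 1 CON and 1 LDP library per rat. The deposited tables hold, per the authors' normalization, log2 values of CPM (UMIs per 1000000 UMIs of the cell) plus 1 for each gene and cell, with the authors' class and subcluster of the cell. The deposited total per cell is an estimated count, not whole in most cells, the deposited number of expressed genes is a count, and the mitochondrial and ribosomal shares were deposited as percent of a cell's counts. The submitters' processing notes name Partek and rn6, and the aligner is not given in the sources used here. The authors kept cells by limits on mitochondrial share, genes and UMIs per cell, and how doublets were treated is not stated. The series' design text gives yields of 51655 CON and 60626 LDP cells without naming the time they cover, and the files hold 42560 CON and 51365 LDP cells at 2 weeks and 27064 and 28283 at 8 weeks.

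Whole UMI counts were recovered from the log2 values, and 99.4% of the values above 0 were whole within 0.02. CPM of a library is the mean over its NP cells. Only the 13878 genes listed in both groups were used, and those with a mean of at least 5 CPM were tested on log2(CPM + 1) with limma 3.58.1 in R 4.3.3, with the rat as a block and Benjamini-Hochberg adjustment at 0.05. The pairing comes from the animal, since the same rat gave both libraries, as read from the shared replicate numbers. The correlations of their deviations from the group means were −0.0262, 0.231, 0.368 and −0.102 for rats 1 to 4. Summed counts were also tested with edgeR 4.0.16 and DESeq2 1.42.0. Whether LDP minus CON differed between 2 subclusters was tested on the within-library differences. Shares and medians were compared by exact permutation over 70 splits of 8 libraries (smallest p 0.0286) and by sign flips over 4 rats (smallest p 0.125). Shares of cells used 1000 UMIs drawn per cell. Joint names came from K-means with 3 clusters on 20 principal components of 2000 variable genes (scikit-learn 1.9.0). The model fits were tested on simulated data. Total NP UMIs per library were 2.14e+07 to 5.48e+07.

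Genes named for puncture were, in each direction, up to 10 past the adjusted threshold and alike in 4 of 4 rats, filled by smallest p, with 2 to 4 members per list by level or size of change, and Ngfr. A few of these genes are not reported here. Genes named for the profile were the 10 highest and 10 lowest mean ratios with 1 sign in 8 of 8 libraries at 50 CPM or more, and for effect differences up to 5 per direction by smallest p. Genes of the sets split by Col2a1 were chosen after their values were seen. The cells, lists and genes were chosen with earlier results of these data known. Alternatives covered scaling, filters, pseudocounts, depth, names and each rat left out.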

Additional observations from a re-analysis of the deposited data

Results flagged for a closer look

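Among 162 groups of 4 libraries, 17 had 1 library far from the other 3 by Dixon's criterion. In unselected groups chance gives about 1 in 20, or 8.1 here. Most groups were of named genes, many of them picked by p or size of change in these same libraries. The 17 can therefore not be judged against that figure. CON library 2 accounted for 5, all of them stress-related genes: Hspa5 at 7711 CPM, Ddit3 at 838 CPM, the growth-arrest gene Btg2 at 4179 CPM, Egr1 at 2614 CPM and Hmox1 at 4252 CPM. LDP library 4 accounted for 4: Mt1 at 3588 CPM, Tppp3 at 395 CPM, the median of 10580 UMIs per NP cell and the 947 genes at 2-fold or more from the other LDP libraries. The others were Atp1b1 (13.7 CPM) and Pdk1 (23.4 CPM) in CON library 1, Cnmd (446 CPM) in CON library 4, Ibsp (1678 CPM) in LDP library 1, Lgals3 (1120 CPM) and Sparc (14328 CPM, the lowest) in LDP library 2, and RGD1305645 (5653 CPM) and Lcn2 (7.59 CPM, the lowest) in LDP library 3.

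The LDP minus CON difference in NP cells was unlike that in IAF cells, by limma's test of the difference itself, for Angptl1 (1.19). That call was lost without rat 2, 3 or 4. Against OAF cells the named genes with such a difference were Ndufaf1 (1.32), Asap1 (1.02), Fra10ac1 (1.02), LOC103689965 (1.81), Ssbp1 (0.97), Acta2 (−4.07), Mcam (−3.12), Rasal2 (−2.97), Sorbs2 (−2.58) and Ngfr (−2.21). Pericyte and Schwann markers also differed between the groups in OAF cells, as given above. With OAF cells holding their UMIs left out, the higher genes stood at 0.85 to 1.72 and Sorbs2, Rasal2 and Ngfr at −1.32 to −0.43, with none called. Acta2 and Mcam were not tested there, since they did not pass the filter on mean CPM.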

How the results depend on the processing

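The 0 calls of limma in NP cells held with each rat left out in turn, and the fit without the replicate block gave 0 higher and 0 lower (smallest adjusted p 0.0857). With UMIs thinned to 1000, median centring, names from the nearest CON profile or edgeR with TMM, 1 gene was called higher (Atp1b1, limma or edgeR adjusted p 0.0406, 0.0369, 0.0490 and 0.0343), and with DESeq2 79 higher and 82 lower; over all settings the adjusted p of Atp1b1 ran from 9.67e-19 to 0.701. For the NP to IAF difference, pseudocount 10 gave 2 calls, a minimum of 20 CPM 9, leaving out 1 rat 0 to 3 higher and 0 lower, and no block 1 and 0. For NP to OAF, pseudocount 10 gave 322 and 262, leaving out 1 rat 12 to 65 and 51 to 83, leaving out OAF cells with pericyte or Schwann UMIs 0 and 0, and no block 174 and 131. The block changed no other call.

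Genes 2-fold from IAF in every library numbered 2 higher and 6 lower with the nearest profile, 5 lower in CON alone and 3 lower at 4000 to under 6000 UMIs; those from OAF numbered 2 and 93 with joint names, and 274 to 294 and 265 to 286 without 1 rat. The LDP minus CON difference of the NP share was 0.57 points with joint names and −15.0 to 3.0999 without 1 rat, that of median UMIs 271 to 1515 and that of median genes 87.5 to 150.2 (118 with sign flips, p = 0.125 by exact permutation of signs over 4 rats).

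LDP minus CON turned in sign at 4000 to under 6000 UMIs for Acan (−0.0137), Sparc (−0.0410), Ctsl (−0.12) and Adamts1 (0.78), with the nearest profile for Col2a1 (0.0298), with means of log2 values for Ibsp (−0.22), without rat 4 for Cd24 (range without 1 rat −0.0378 to 0.26) and Hif1a (−0.38 to 0.0948), without rat 1 for Col1a1 (−0.44 to 0.0834) and without rat 2 for Ctgf (−0.40 to 0.23). Ngfr turned with means of log2 values (0.0443), thinning (0.13), joint names (0.0873), all disc cells (0.19) and without rat 4 (−0.16 to 0.17 without 1 rat). NP over IAF turned at 4000 to under 6000 UMIs for Acan (−0.0225) and S100b (−0.14), and with joint names for S100b (−0.00212), Col4a2 (0.13), Fibin (0.0585), Hspa1a (0.0826), Nfkbia (0.0478) and Sparcl1 (0.48). The share with a UMI turned for Acan with all UMIs (−0.0215) and for Col2a1 without rat 2 (−4.58 to 2.95 without 1 rat). The causes were not tested. Of 1400 values of 75 named genes under alternatives, 1343 kept direction and side of the threshold, 15 turned in sign and 42 passed the threshold. This count was partly fixed in advance. No main value passed, so any value that failed stayed on its side, and genes alike in 4 of 4 rats cannot turn with 1 rat left out. Of the NP ratios, 55 of 360 over IAF and 51 of 340 over OAF moved by more than the spread between libraries. With 4 rats, a difference has to be large against its spread to pass, and genes near 5 CPM rest on few UMIs per cell.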
